A study of Homo sapiens with 6 samples.

Results

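The NRF2 antioxidant system was followed as 9 genes among the 28265 genes of the table, picked by symbol: the transcription factor gene NFE2L2, which encodes NRF2, its repressor KEAP1, and the target genes NQO1, GCLC, GCLM, HMOX1, TXNRD1, SRXN1 and ME1. RNA was sequenced from Huh7, an established human hepatocellular carcinoma line, at 48 h after lentiviral transduction. The first group (LHX2, 3 libraries) received a vector that expresses the LIM-homeodomain transcription factor LHX2, and the second (CTRL, 3 libraries) a control vector. Both groups were thus transduced cells of the same line, although the labels also call the CTRL cells parental. The labels do not name the promoter of the vector. Nor do they say that the libraries of a group came from separate cultures, so the spread behind each p-value is that of libraries and may be purely technical. The one comparison is LHX2 against CTRL. With LHX2, GCLM rose and NFE2L2, NQO1, HMOX1, SRXN1 and ME1 fell, while KEAP1, GCLC and TXNRD1 did not pass the test.

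NRF2 is kept scarce in unstressed cells because KEAP1 presents it to a CUL3 ubiquitin ligase for degradation. When electrophiles or oxidants modify cysteines of KEAP1, NRF2 accumulates, pairs with a small MAF protein in the nucleus and binds antioxidant response elements near genes for glutathione synthesis, quinone reduction, thioredoxin recycling and NADPH supply. In the liver these genes serve detoxification, and activating mutations of the pathway occur in hepatocellular carcinoma. Since much of this control acts on the protein, transcript levels of NFE2L2 and KEAP1 do not measure NRF2 activity.

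The core of the antioxidant response element, TGACNNNGC, was searched on both strands of RefSeq promoter windows of GRCh38.p14, which run from 250 bases before to 50 bases after each annotated start. Of the 8 member genes with a window, 4 held the core (5 of 11 windows), against 13.35% of all 35116 windows. The table gave no window for HMOX1. The sequences below are shown because GCLM and ME1, the members with the highest and lowest log2 fold change, both carry the core, as do KEAP1 and TXNRD1. Each is given 5′ to 3′ in the direction of transcription with the match in capitals, at chr1:93909446-93909474 (minus strand) for GCLM, chr6:83431170-83431198 (minus) for ME1, chr19:10502784-10502812 (minus) for KEAP1 and chr12:104286920-104286948 (plus) for TXNRD1.
GCLM: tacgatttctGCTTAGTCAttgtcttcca
KEAP1: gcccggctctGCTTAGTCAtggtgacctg
TXNRD1: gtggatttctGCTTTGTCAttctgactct
ME1: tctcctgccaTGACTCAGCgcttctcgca
The 9 letters in GCLM and KEAP1 were the same and, like those of TXNRD1, read as the core on the opposite strand, whereas ME1 carried the core in the direction of transcription. The match lay at bases -34 to -26 from the start in GCLM, -31 to -23 in the second KEAP1 window, -102 to -94 in the second TXNRD1 window and -137 to -129 in ME1. Further matches were TGACACGGC at -54 to -46 of the second KEAP1 window, TGACTTCGC at -99 to -91 and TGACGGAGC at -8 to 1 of the first TXNRD1 window, and TGACGGTGC at 12 to 20 in ME1. Positions count from the start of each window's own transcript. The stretches printed for KEAP1 and TXNRD1 lie inside the gene, with all 29 bases in exons annotated by GENCODE, as does the further KEAP1 match with its flanks. Of the 29 bases printed for GCLM 11 are in an annotated exon, and of those for ME1 0 are. The longer stretches from the start of the window to the end of the match, at chr1:93909456-93909680 for GCLM and chr6:83431180-83431301 for ME1, both on the minus strand, give the context.
GCLM: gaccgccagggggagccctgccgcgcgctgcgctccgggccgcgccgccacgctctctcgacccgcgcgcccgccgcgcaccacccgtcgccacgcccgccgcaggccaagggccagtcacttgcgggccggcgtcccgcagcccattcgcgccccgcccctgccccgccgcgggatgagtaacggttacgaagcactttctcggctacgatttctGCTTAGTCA
ME1: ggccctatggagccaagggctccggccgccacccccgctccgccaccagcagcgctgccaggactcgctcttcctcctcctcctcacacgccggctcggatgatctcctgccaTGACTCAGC
TAATTA, the core bound by many LIM-homeodomain proteins, was in 0 of the 11 member windows, against 4.84% of all windows. A match or its absence describes only the letters of these windows.

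The deposited read counts summed to between 30029313 and 35194438 in the LHX2 libraries and between 32625405 and 39653681 in the CTRL libraries. LHX2 had 2535, 2427 and 3126 counts in the LHX2 libraries and 1, 2 and 1 in the CTRL libraries, which fits the labels. All 10 hepatocyte and hepatoma markers were expressed, with ALB at 12300 ± 617 CPM in LHX2 and 12200 ± 325 CPM in CTRL (read counts scaled to library size with TMM factors; SD, n = 3 each). Of the 10, 4 fell, APOA2 (log2 fold change -0.36), SERPINA1 (-0.30), HNF4A (-0.26) and TTR (-0.17), and TF rose (0.22, and 0.02 without a call after correction for GC content and transcript length), changes of the size seen in most of the NRF2 genes. APOB did not pass (-0.08) but was called lower after the same correction (-0.24) and without LHX2 replicate 2 (-0.19). FGB did not pass either (-0.10), a call kept in 12 of 16 alternative settings, and was called lower in the others. Summed leukocyte markers were at 612 to 678 CPM in LHX2 and 471 to 500 CPM in CTRL, nearly all of it LYZ, with PTPRC at 3 counts or fewer and CD3E at 0 in every library. CD68 rose as well, to a mean of 16.5 CPM in LHX2 from 8.35 CPM in CTRL (log2 fold change 0.99). Summed stromal markers were at 67.9 to 73.5 CPM in LHX2 and 35.3 to 38.4 CPM in CTRL. Of these COL1A2 averaged 36.8 CPM in LHX2 and 9.26 CPM in CTRL and PDGFRA 20.8 CPM in LHX2 and 17.5 CPM in CTRL, while ACTA2 and DCN were at or near 0. Stromal LUM rose too, with 12.6 CPM in LHX2 and 9.01 CPM in CTRL (log2 fold change 0.49). Other stromal markers had lower counts in LHX2, COL3A1 (2 to 4, against 7 to 9 in CTRL) and PDGFRB (1 to 2, against 6 to 10 in CTRL). Both were too low to be tested, as was COL1A1, at 10 counts or fewer in every library. Endothelial CDH5, KDR and TEK were at 0 throughout. PECAM1, of the same list, was expressed at 3.03 CPM in LHX2 and 4.02 CPM in CTRL. It was called lower (log2 fold change -0.41) and kept that call in 11 of 16 alternative settings. The part of LYZ, COL1A2 and the other markers that moved in the results was not tested. In bulk samples a lower level cannot tell fewer cells with a transcript from less transcript per cell.

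All 9 members passed the filter on low counts and were among the 14533 genes tested with the edgeR quasi-likelihood test, whose p-values were adjusted over all of these by the Benjamini-Hochberg method. The CPM of the groups did not overlap in 7 of the 9, where 44.9% of tested genes did not overlap. At an adjusted p under 0.05, 6 of the 9 members passed, where 32.5% of tested genes passed. Of these, 1 member was higher with LHX2, where 16.6% of tested genes were higher, and 5 were lower, where 15.8% of tested genes were lower. The remaining 3 did not pass. The median log2 fold change of the 9 was -0.19, beside 0.01 for all tested genes. These shares are over all tested genes and were not matched for expression.

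**Figure D1:**
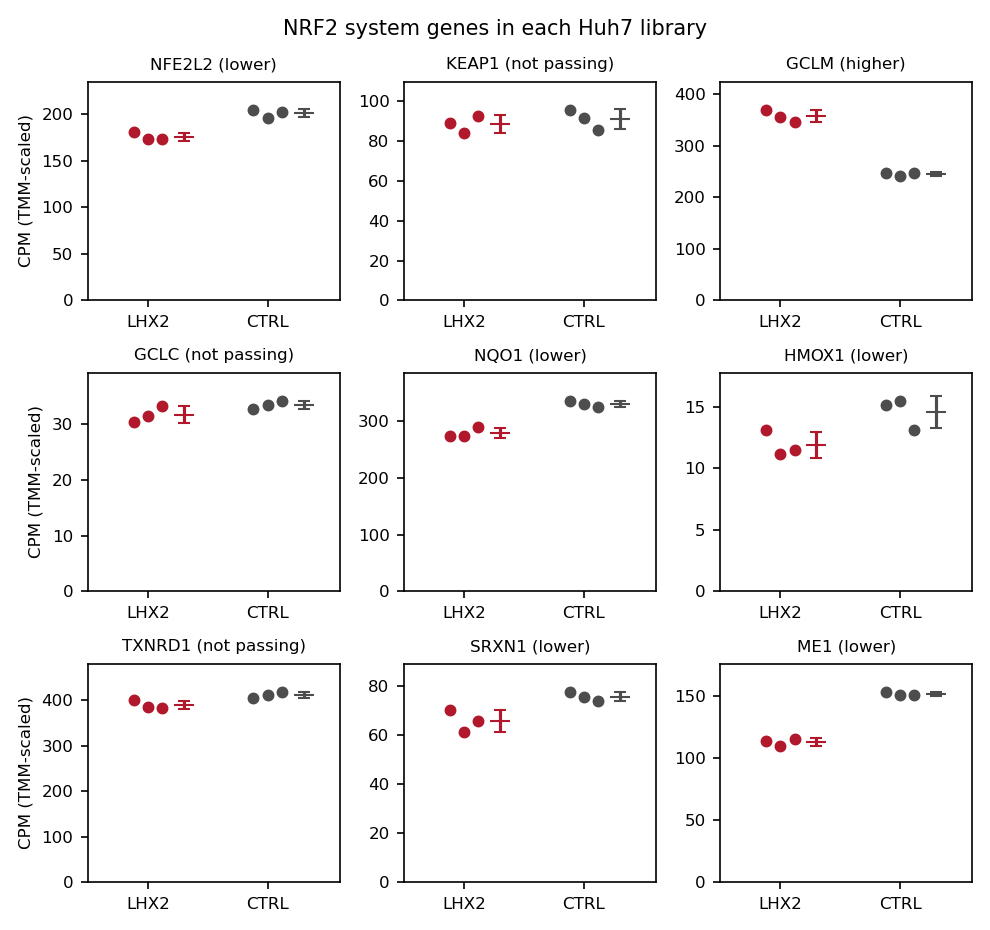
CPM (TMM-scaled, linear axes from 0) of the 9 genes in each library, with LHX2 on the left and CTRL on the right; points are libraries and bars the mean and SD of 3. GCLM stands higher in all LHX2 libraries, and ME1 and NQO1 stand lower, while KEAP1 and GCLC overlap.

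NFE2L2 lies on chromosome 2 from 177230303 to 177264727 (GRCh38, as for the other genes). It had 181, 173 and 174 CPM in LHX2 replicates 1 to 3, against 205, 196 and 203 CPM in CTRL replicates 1 to 3. Each LHX2 library was lower than every CTRL library. The log2 fold change was -0.19 ± 0.04 (SE; edgeR adjusted p = 0.0011), a decrease of the mean to 176 ± 4.13 CPM in LHX2, against 201 ± 4.26 CPM in CTRL (SD, n = 3 each). Its exons share 1054 bases with a GENCODE transcript of the same strand, 190 with an antisense transcript and 54 with AGPS on the opposite strand. Of these AGPS alone has a row in the table, and the submitters' notes do not give the strand option of the counting.

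KEAP1, on chromosome 19 from 10486125 to 10503356, encodes the substrate adaptor that targets NRF2 for degradation. It had 88.7, 83.9 and 92.7 CPM in the LHX2 libraries, against 95.5, 91.3 and 85.6 CPM in the CTRL libraries. The groups overlapped and the log2 fold change was -0.04, with a 95% interval of -0.14 to 0.07 (edgeR adjusted p = 0.61). The ratio of KEAP1 to NFE2L2 counts, each per kb of the longest transcript, was 0.474, 0.468 and 0.515 in LHX2, against 0.451, 0.449 and 0.408 in CTRL. The LHX2 ratios were all above the CTRL ratios, by 0.16 on the log2 scale (two-sided exact permutation test, p = 0.1, the smallest p that 3 against 3 libraries allow). After correction for GC content and transcript length the log2 fold changes of KEAP1 (-0.09) and NFE2L2 (-0.17) lay closer together than the uncorrected -0.04 and -0.19. The ratio itself was not recomputed with that correction.

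Glutathione synthesis begins with glutamate-cysteine ligase, a pair of a catalytic subunit, GCLC, and a modifier subunit, GCLM, which raises the efficiency of the catalytic one. GCLM, on chromosome 1 from 93885199 to 93909430, was the member that rose. It had 369, 356 and 347 CPM in the LHX2 libraries, against 247, 241 and 248 CPM in the CTRL libraries, so that the lowest LHX2 library stood well above the highest CTRL library. The fold change was 1.46, or 0.54 ± 0.04 on the log2 scale (SE; edgeR adjusted p = 6.5e-08), and 980 of the 14533 tested genes had a higher log2 fold change.

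GCLC, on chromosome 6 from 53497341 to 53545101, had 30.3, 31.4 and 33.3 CPM in LHX2, against 32.8, 33.4 and 34.1 CPM in CTRL. The groups overlapped, since LHX2 replicate 3 exceeded CTRL replicate 1, and GCLC did not pass (log2 fold change -0.08, 95% interval -0.20 to 0.04, edgeR adjusted p = 0.31). GENCODE has a non-coding gene on the same strand that shares 529 exon bases with GCLC. Both subunits of the enzyme thus had separate values in the same libraries, and their ratio was computed within each. Per kb of transcript, GCLM counts were 9.56, 8.90 and 8.18 times those of GCLC in the LHX2 libraries, against 5.90, 5.67 and 5.70 times in the CTRL libraries. The ratio averaged 8.88 ± 0.694 in LHX2 and 5.76 ± 0.129 in CTRL (SD, n = 3 each), a 1.54-fold difference without overlap (two-sided exact permutation test, p = 0.1, again the smallest possible).

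**Figure D2:**
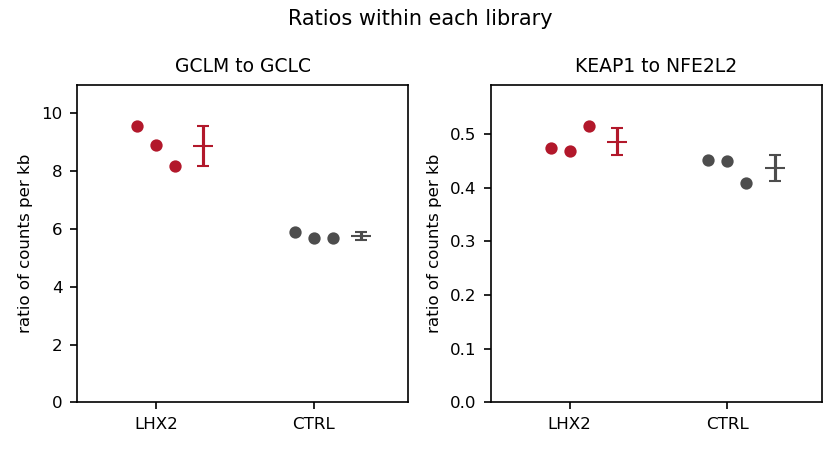
Ratios of counts per kb of the longest transcript, GCLM to GCLC and KEAP1 to NFE2L2, in each library (LHX2 left, CTRL right; bars are the mean and SD of 3). The GCLM to GCLC ratio lies at 8.18 to 9.56 in LHX2 and 5.67 to 5.90 in CTRL, and the KEAP1 to NFE2L2 ratio differs less.

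NQO1, on chromosome 16 from 69709401 to 69726560, encodes the quinone reductase that is widely used as a readout of NRF2. Its values were 274, 274 and 290 CPM in the LHX2 libraries, against 336, 331 and 326 CPM in the CTRL libraries. All LHX2 libraries were lower, by 15.6% in the fit (log2 fold change -0.25 ± 0.04, SE; edgeR adjusted p = 0.00019). GENCODE places an antisense transcript over 575 exon bases of NQO1.

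HMOX1, on chromosome 22 from 35381096 to 35394207, encodes haem oxygenase 1, which opens the haem ring and whose gene is held down by BACH1 as well as induced by NRF2. It had the fewest counts of the 9 genes, 393, 339 and 414 in LHX2 and 494, 606 and 426 in CTRL. These were 13.1, 11.1 and 11.5 CPM in LHX2, against 15.2, 15.5 and 13.1 CPM in CTRL, and the groups were separated only by 13.08 CPM in LHX2 replicate 1 and 13.12 CPM in CTRL replicate 3. HMOX1 fell by 0.30 on the log2 scale (SE 0.09; edgeR adjusted p = 0.021). The call did not hold with some single libraries left out, which also leaves fewer libraries to test. The edgeR adjusted p was 0.0791 without LHX2 replicate 2, 0.0502 without LHX2 replicate 3, 0.0766 without CTRL replicate 1 and 0.0999 without CTRL replicate 2. The log2 fold changes were -0.25, -0.27, -0.27 and -0.25 in that order, and the cause of the lost calls was not tested.

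TXNRD1, on chromosome 12 from 104215779 to 104350307, encodes the selenoprotein that reduces cytosolic thioredoxin with NADPH. It had 400, 385 and 383 CPM in LHX2, against 405, 413 and 418 CPM in CTRL. Although the groups did not overlap, the difference was -0.08 ± 0.04 on the log2 scale (SE) with a 95% interval of -0.16 to 0.00, and it did not pass after adjustment (edgeR adjusted p = 0.12).

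SRXN1, on chromosome 20 from 646615 to 653200, encodes sulfiredoxin, which restores overoxidised peroxiredoxins. It had 70.4, 61.4 and 65.6 CPM in the LHX2 libraries and 77.6, 75.6 and 73.8 CPM in the CTRL libraries. Each LHX2 value was below each CTRL value, and the log2 fold change was -0.20 ± 0.05 (SE; edgeR adjusted p = 0.0064). GENCODE has another protein-coding gene on the same strand that shares 2292 exon bases with SRXN1 and has no row in the table, so reads there may belong to either.

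ME1, on chromosome 6 from 83210402 to 83431051, encodes the cytosolic malic enzyme, which makes NADPH while turning malate into pyruvate. It fell most of the 9: values were 114, 110 and 115 CPM in LHX2, against 153, 151 and 151 CPM in CTRL. The highest LHX2 library was far below the lowest CTRL library. The fit gave a decrease of 25.5%, or -0.42 ± 0.04 on the log2 scale (SE; edgeR adjusted p = 8.5e-07), and 708 of the 14533 tested genes had a lower log2 fold change.

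**Figure D3:**
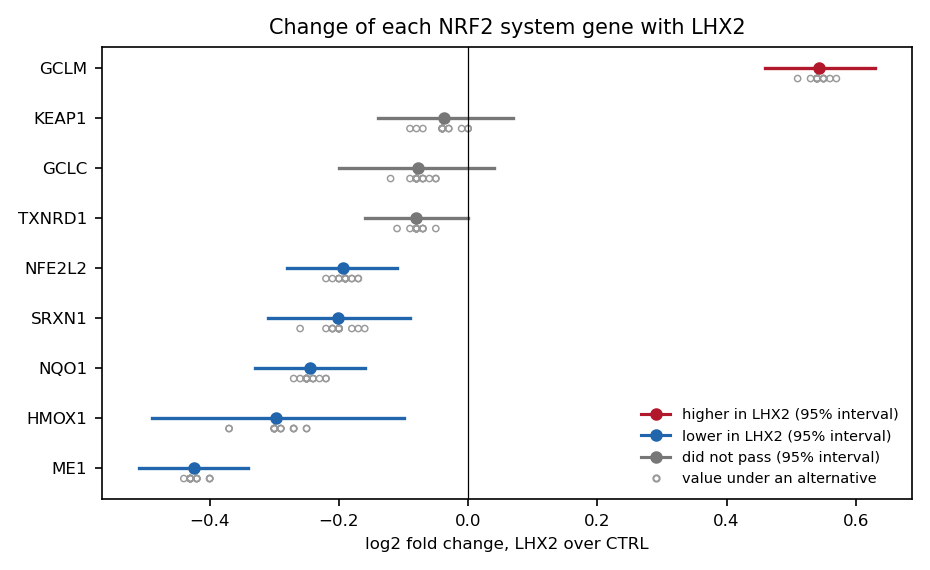
Log2 fold change (LHX2 over CTRL) of each gene with its 95% interval, and below it, as open circles, its value under each of 16 alternative settings. GCLM lies near 0.54 and ME1 near -0.42 under each alternative, and the interval of HMOX1 is the widest.

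Summed over the 7 target enzymes, the level was 1248 ± 21.2 CPM in LHX2 and 1263 ± 2.92 CPM in CTRL (SD, n = 3 each), with overlapping libraries (1229 to 1271 in LHX2 and 1260 to 1266 in CTRL). GCLM made up 28.6% of that sum in LHX2 and 19.4% in CTRL. Without GCLM the other 6 enzymes summed to 891 ± 15.9 CPM in LHX2 and 1018 ± 1.91 CPM in CTRL, and these sums did not overlap (873 to 902 in LHX2 and 1016 to 1020 in CTRL). GCLM was left out with its rise known, and each of the other 6 had a negative log2 fold change. The lower sum therefore restates their single values and adds no further evidence.

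Levels were compared between genes as CPM per kb of the longest GENCODE transcript. In LHX2 the order was NQO1 (95.9 ± 3.15), TXNRD1 (91.1 ± 2.18), GCLM (73.6 ± 2.33), NFE2L2 (61.6 ± 1.45), ME1 (33.5 ± 0.886), KEAP1 (29.9 ± 1.49), SRXN1 (24.4 ± 1.67), GCLC (8.31 ± 0.395) and HMOX1 (6.53 ± 0.571; SD, n = 3). In CTRL it was NQO1 (114 ± 1.76), TXNRD1 (96.3 ± 1.59), NFE2L2 (70.5 ± 1.49), GCLM (50.5 ± 0.681), ME1 (45.0 ± 0.428), KEAP1 (30.7 ± 1.68), SRXN1 (28.0 ± 0.703), GCLC (8.77 ± 0.179) and HMOX1 (8.0 ± 0.701). The order differed in 1 place, with GCLM above NFE2L2 in LHX2 and below it in CTRL. In both groups the library ranges of neighbouring genes were separate, though narrowly for NQO1 and TXNRD1 in LHX2 (94.0 to 99.5 and 89.6 to 93.6) for KEAP1 and SRXN1 in CTRL (29 to 32.3 and 27.3 to 28.7) and for GCLC and HMOX1 in CTRL (8.60 to 8.95 and 7.20 to 8.48). A shorter isoform than the longest one would raise a gene's level on this scale.

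**Figure D4:**
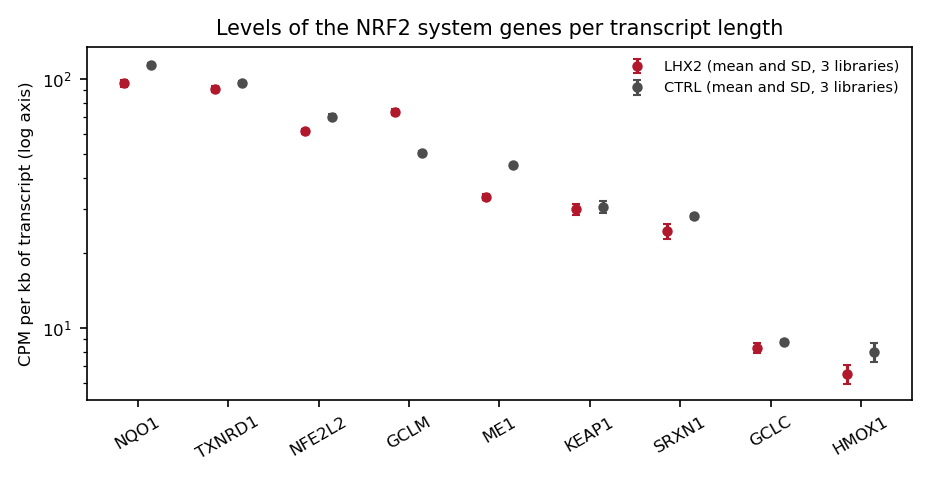
CPM per kb of transcript (log axis) of the 9 genes, ordered by the CTRL level, with LHX2 left of CTRL for each; points and bars are the mean and SD of 3 libraries. GCLM is the gene whose LHX2 point lies above its CTRL point by 73.6 against 50.5.

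Further NRF2 targets were counted over a list of 30 genes, of which 29 were tested: 16 fell (55.2%, where 15.8% of all tested genes fell), 5 rose (17.2%, near the 16.6% of all tested genes) and 8 did not pass, with a median log2 fold change of -0.15. The largest falls were in aldo-keto reductases, which reduce carbonyl compounds. AKR1C1 had 31.7, 28.4 and 28.7 CPM in LHX2, against 75.6, 77.5 and 91.9 CPM in CTRL (log2 fold change -1.46 ± 0.07, SE; edgeR adjusted p = 1e-09), and AKR1C2 fell too (-1.15). AKR1B10 (-1.54) was nearly silent, at 4 to 6 counts in LHX2 and 12 to 23 in CTRL, and its call was lost without CTRL replicate 2 (-1.29, edgeR adjusted p = 0.068). It passed the filter on low counts only through the CTRL libraries, so its place among the genes that fell adds no support. With a filter of 1 CPM in 3 libraries AKR1B10 was not tested, and 15 of 28 further targets fell. AKR1C3 (-0.77, adjusted p = 0.019) did not pass without LHX2 replicate 2 (-0.65), CTRL replicate 1 (-0.70) or CTRL replicate 3 (-0.73). The AKR1C genes are close copies of each other, so shared reads leave their separate values uncertain.

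Several targets that act beside the members fell with them. GPX2, a glutathione peroxidase, had 31.6, 26.7 and 28.3 CPM in LHX2, against 48.9, 47.1 and 51.5 CPM in CTRL, a log2 fold change of -0.77. TXN, the thioredoxin that TXNRD1 reduces, fell to 313 ± 9.44 CPM in LHX2, against 423 ± 7.69 CPM in CTRL (SD, n = 3 each; log2 fold change -0.43). GSR, which recycles oxidised glutathione (-0.32), SLC7A11, the cystine importer that feeds glutathione synthesis (-0.29), and PRDX1 (-0.29), a substrate of SRXN1, fell too. The 5 targets that rose were the efflux pump genes ABCC3 (1.14) and ABCC2 (0.20), TRIM16 (0.50), the epoxide hydrolase gene EPHX1 (0.21) and PGD (0.17) of the pentose phosphate pathway. ABCC3 had 9.92, 11.2 and 11.2 CPM in LHX2, against 5.31, 4.95 and 4.43 CPM in CTRL. EPHX1 did not pass without LHX2 replicate 1 (0.18) or CTRL replicate 2 (0.17), and OSGIN1 and ABCC4 were among those that did not pass, at -0.05 and -0.06.

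Partners and regulators of NRF2 were counted over 21 tested genes: 6 rose (28.6%, where 16.6% of all tested genes rose), 3 fell (14.3%, near the 15.8% of all tested genes) and 12 did not pass, and the median log2 fold change was 0.07. BACH2, a repressor related to BACH1, rose 2.41-fold to 14.8 ± 1.12 CPM in LHX2, against 6.14 ± 0.295 CPM in CTRL (SD, n = 3 each; edgeR adjusted p = 6.5e-08). MAFK, a small MAF partner of both NRF2 and the BACH proteins, had 19.5, 21.5 and 21.1 CPM in LHX2, against 15.3, 15.4 and 11.9 CPM in CTRL (log2 fold change 0.54). BACH1 did not pass, at 0.07 ± 0.04 (SE; adjusted p = 0.23), nor did the other small MAF genes, MAFG (0.06) and MAFF (-0.22), though MAFF was called lower after correction for GC content and transcript length (-0.30, adjusted p = 0.036). The chromatin regulators CHD6 (0.37), CREBBP (0.26) and EP300 (0.22) and the related factor NFE2L1 (0.17) rose, but CREBBP (0.06), EP300 (0.06) and NFE2L1 (0.11) did not pass once counts were corrected for a dependence on GC content and transcript length, which left 3 higher. The 3 that fell were PALB2 (-0.23), SQSTM1 (-0.15) and CUL3 (-0.14), the scaffold of the ligase that KEAP1 joins. None of these 3 passed the edgeR test without CTRL replicate 1 (-0.21, -0.11 and -0.12 in that order), where 0 of the list were lower after adjustment and 2 at an unadjusted p under 0.05. SQSTM1, which is also among the further targets that fell, was less stable than PALB2 and CUL3. Its call was lost with library totals alone (-0.13), the replicate block (-0.16), and without LHX2 replicate 2 (-0.10) or CTRL replicate 2 (-0.16).

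Genes of glutathione and peroxide metabolism, GCLC and GCLM included, split into 5 that rose (25.0%, where 16.6% of all tested genes rose), 6 that fell (where 15.8% fell) and 9 that did not pass among 20 tested (median -0.06). Besides GCLM, GPX3, the secreted glutathione peroxidase, rose to 208 ± 4.88 CPM in LHX2, against 141 ± 7.61 CPM in CTRL (SD, n = 3 each; log2 fold change 0.55), and GGT1, which breaks down extracellular glutathione, rose by 0.48. OPLAH (0.33), which recycles 5-oxoproline to glutamate, and GPX8 (0.23) were the other 2. GSS, the enzyme of the step after glutamate-cysteine ligase, did not pass (-0.06 ± 0.05, SE; edgeR adjusted p = 0.43). Superoxide dismutases SOD1 (-0.28) and SOD2 (-0.27) and catalase, CAT (-0.22), fell. Neither OPLAH nor GPX8 passed without CTRL replicate 2, which left 3 higher. OPLAH was also lost without LHX2 replicate 3 (0.24) or CTRL replicate 3 (0.27) and after the correction for GC content and length (0.19), and GPX8 without LHX2 replicate 1 (0.15) or CTRL replicate 1 (0.22).

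Among 17 thioredoxin, peroxiredoxin and methionine sulfoxide reductase genes, 2 rose (11.8%, where 16.6% of all tested genes rose), 6 fell (35.3%, where 15.8% fell) and 9 did not pass (median -0.08). TXN, PRDX1, PRDX6 (-0.28), PRDX3 (-0.24), MSRB1 (-0.22) and SRXN1 fell. MSRB3 rose (0.41), as did PRDX4, the peroxiredoxin of the endoplasmic reticulum (0.20), which did not pass without LHX2 replicate 1 (0.20), LHX2 replicate 3 (0.16) or CTRL replicate 3 (0.11), so that 1 gene was then higher. The mitochondrial thioredoxin system, TXN2 (-0.07) and TXNRD2 (0.04), did not pass.

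Of 13 tested genes on a list of NADPH-producing and related enzymes, 5 fell (38.5%, where 15.8% of all tested genes fell), 2 rose (15.4%, near the 16.6% of all tested genes) and 6 did not pass (median -0.20). Not every enzyme on this list makes NADPH. ME1 fell beside the folate enzymes MTHFD2 (-0.40), MTHFD1 (-0.27) and ALDH1L2 (-0.46) and the cytosolic isocitrate dehydrogenase IDH1 (-0.22), while its mitochondrial relatives ME2 (-0.05) and ME3 (-0.20) did not pass; with that correction ME2 was lower (-0.14, adjusted p = 0.025). ALDH1L2 had a mean of 2.02 CPM in LHX2 and 2.78 CPM in CTRL, and its call was lost without LHX2 replicate 1 or 3 or CTRL replicate 1 or 2, at -0.45 to -0.40. ALDH1L2 did not pass with the replicate block (-0.46) or with DESeq2 (-0.47) either. PGD and H6PD (0.21) rose, but H6PD did not pass after the correction for GC content and length (0.03).

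In haem breakdown and iron storage 5 of 8 genes fell (62.5%, where 15.8% of all tested genes fell), 1 rose (12.5%, where 16.6% rose) and 2 did not pass (median -0.23). FTH1, the ferritin heavy chain, had 1154, 1038 and 996 CPM in LHX2, against 1405, 1381 and 1431 CPM in CTRL (log2 fold change -0.40), and FTL (-0.22), POR (-0.26), the iron exporter SLC40A1 (-0.24) and HMOX1 were the others that fell. BLVRA, which reduces the biliverdin that haem oxygenase makes, rose to 38.1 ± 0.358 CPM in LHX2, against 23.4 ± 0.794 CPM in CTRL (SD, n = 3 each; 1.63-fold), and HMOX2, the constitutive haem oxygenase, did not pass (-0.01). Both FTL and HMOX1 lost their calls without LHX2 replicate 2, CTRL replicate 1 or CTRL replicate 2, which left 3 lower. Ferritin genes have many processed pseudogenes, so their counts may be shared.

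**Figure D5:**
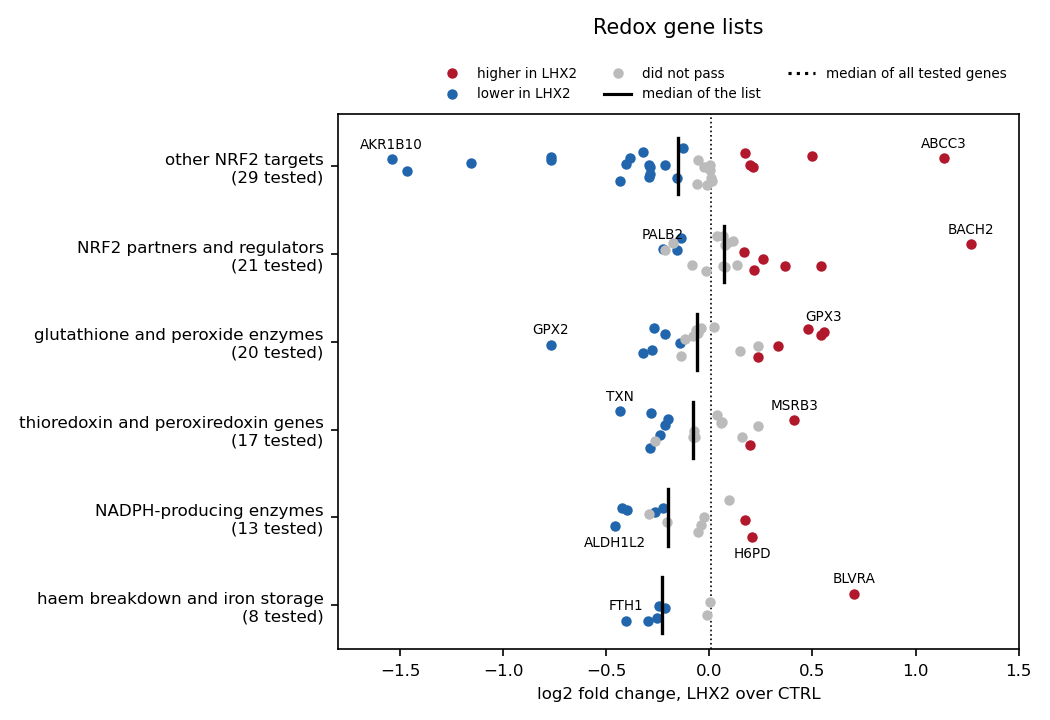
Log2 fold change (LHX2 over CTRL) of each tested gene in 6 redox lists, coloured by the edgeR call, with the median of each list as a bar and the median of all tested genes as a dotted line. Lists share genes, the lowest and highest gene of each list are named, and the medians run from -0.23 to 0.07.

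Genes with the pattern most like GCLM over the 6 libraries, by Pearson's r of log2 CPM among 10383 genes with at least 5 CPM, were CARHSP1 (r = 0.9997, log2 fold change 0.21), EXT1 (r = 0.9996, 0.85) and JAML (r = 0.9996, 1.02). Those most like ME1 were TSPAN14 (r = 0.9993, log2 fold change -0.40), MRPL39 (r = 0.999, -0.29) and MRPL15 (r = 0.9989, -0.48). All 6 libraries share the 2 groups, which set most of such a correlation, and 801 genes exceeded r = 0.95 with GCLM and 811 with ME1.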

How the data were processed

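The authors deposited raw read counts per gene for 6 libraries, whole numbers without normalization. Per the labels' protocols, column-purified RNA went into a strand-specific poly-A library kit. Per the submitters' processing notes, the tools were featureCounts 2.0.0, TopHat2 2.1.1, SAMtools 1.9, Bowtie2 2.3.5.1, FastQC and bcl2fastq 2.20, with build GRCh38/hg38. Which annotation and strand option were used for counting is not given in these sources. The control column written in another form was taken as CTRL replicate 1 by its last number.

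Counts were filtered with edgeR 4.0.16 filterByExpr (at least 10 counts, 15 in total, proportion 0.7), scaled by TMM (factors 0.9848 to 1.024) and compared with the quasi-likelihood test with group as the single term (R 4.3.3, limma 3.58.1, DESeq2 1.42.0). Benjamini-Hochberg adjustment ran over all 14533 genes, with a threshold of 0.05. Standard errors came from the F statistic. Sequences and positions are RefSeq's (GRCh38.p14), and transcript lengths those of GENCODE release 29. Python 3.11.15 made the summaries and ratios.

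The members and lists were chosen with earlier results of these data known. Beyond the 9 members, the up to 5 genes of each list with the largest changes that passed were named, and every gene that passed where a count was 5 or fewer. GSR, SLC7A11, ABCC4, OSGIN1, MAFF, MAFG, BACH1, NFE2L1, EP300, GSS, CAT, SOD1, SOD2, TXN2, TXNRD2, MSRB1, ME2, ME3, HMOX2 and the markers of other cell types fall outside this rule and were chosen after their values were seen. Alternatives were DESeq2, limma-voom, upper-quartile or RLE scaling, totals without factors, no filter, 1 CPM in 3 libraries, a replicate block, LHX2 excluded from scaling, a loess correction (span 0.3) for GC content and length, and each library left out. The fit was checked on simulated data with known changes.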

Additional observations from a re-analysis of the deposited data

How the results depend on the processing

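Across the 16 alternatives, 8 of the 9 members kept their call: GCLM ran from 0.51 to 0.57, ME1 from -0.44 to -0.40, NQO1 from -0.27 to -0.22, NFE2L2 from -0.22 to -0.17 and SRXN1 from -0.26 to -0.16, while TXNRD1, GCLC and KEAP1 did not pass under any. HMOX1 ran from -0.37 to -0.25 with single libraries left out and lost its call in 4 of these; the cause was not tested. All genes higher and lower numbered 1850 to 2316 and 1699 to 2251 with a library left out, 2798 and 1888 with library totals alone, and 2235 and 2864 with the length and GC trend removed. Over the lists, leaving out a library gave 3 to 5 higher among glutathione genes, 1 to 2 higher among thioredoxin genes, 0 to 3 lower among NRF2 partners and 3 to 5 lower among haem and iron genes. It also gave 12 to 16 lower among further NRF2 targets, 5 to 7 lower among glutathione genes and 4 to 6 lower among genes of the NADPH list. Removal of the length and GC trend gave 3 higher among NRF2 partners, and 1 higher and 7 lower among genes of the NADPH list. The GCLM to GCLC ratio differed by 0.57 to 0.68 (log2) and the KEAP1 to NFE2L2 ratio by 0.11 to 0.18 with a library left out. Transcript lengths cancel in these differences between groups, so leaving out the length scaling could not change them and tests nothing.

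The labels do not say whether the replicate numbers of the titles pair the libraries, and the counts showed no sign of it. Deviations of same-numbered libraries from their group means correlated at -0.0555, -0.0735 and -0.195, and 0 of 6 libraries correlated best with their own number. Such correlations cannot show how the libraries were made. With the replicate block 1936 genes were higher and 1832 lower, against 2415 and 2301 without it, 3 glutathione genes and 1 thioredoxin gene were higher, and each member had the same call. Of the further NRF2 targets 13 were lower with the block, against 16 without it.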
